A study of Homo sapiens with 9 samples.

Results

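The genes described here encode proteins of the pre-mRNA splicing machinery: the SR and hnRNP families, the core proteins of the U1, U2 and U5 particles and the tri-snRNP, related RNA binding proteins and helicases, and the CLK kinases. The 55 members were taken as the rows of the gene count table that carry their symbols, out of 59050 gene symbols in all. RNA sequencing was done on MEC1, a B-cell line established from chronic lymphocytic leukemia (CLL), in 9 samples. The sample titles carry the prefix MECPGK, which the labels do not explain. Of these, 3 were cultured in 2D (no culture time is given in the labels), 3 were 3D bioprinted and harvested at day 7, and 3 were 3D bioprinted and harvested at day 14. All samples come from this single line, and the labels do not say whether replicates were separate cultures or scaffolds, so the p-values measure only the spread between these samples, which may be technical. Scaffold RNA was isolated with TRIzol, treated with DNase I and extracted again on a column kit, while RNA of the 2D cultures was isolated on that column kit directly, whose washes also contain DNase. Extraction and culture condition therefore cannot be told apart in 3D against 2D, whereas both time points shared the extraction.

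Introns are removed by the spliceosome, which assembles on each pre-mRNA from small nuclear ribonucleoprotein particles (snRNPs). U1 recognizes the 5′ splice site, U2AF and the SF3A and SF3B proteins of U2 engage the 3′ splice site and the branch point, and the U4/U6.U5 tri-snRNP then brings the proteins of the catalytic core. SR proteins bind mainly exonic enhancers and promote exon inclusion, and hnRNP proteins bind elsewhere on the transcript and often oppose them. In CLL the branch point protein SF3B1 is a recurrent target of somatic mutation. Gene-level counts, as used here, do not separate spliced isoforms, which matters for SR genes because many of them produce transcripts that are degraded through a poison exon.

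Assigned reads ranged from 54662799 to 85968686 per sample, and the members together took 1.40% to 1.46% of them in 2D, 1.55% to 1.59% at day 7 and 1.16% to 1.34% at day 14. Values are given as CPM, the read count of a gene scaled to the assigned reads of its library, after TMM scaling. Replicates differed most at day 14, where the chi-square per gene between pairs of samples was 155 to 305, against 28.4 to 54.1 within 2D and 22.5 to 81.9 within day 7, and day 14 replicate 1 was the sample farthest from its group. The share of reads on ribosomal protein genes was 3.86% to 4.52% in 2D, 1.62% to 1.77% at day 7 and 1.81% to 3.10% at day 14, and the share on immunoglobulin genes was 1.25% to 1.31%, 4.47% to 5.24% and 4.998% to 7.14%. Of 8 B-cell markers, 7 passed the filter on low counts, with a summed level of 2809.9 to 2945 CPM before TMM scaling in 2D, 2767 to 3616 at day 7 and 3456 to 3684 at day 14. The exception was CD5, a surface marker of CLL cells, with 1 to 62 reads per sample. The summed level of 8 T and NK cell markers was 362 to 396, 561 to 579 and 792 to 993 CPM on the same scale, nearly all of it TRAC and GNLY, while CD3D and CD3G had 0 to 3 reads in every sample. Myeloid markers (6 genes) summed to 1.05 to 4.59 CPM, with LYZ at 0 to 2 reads, and stromal and endothelial markers (6 genes) to 25.2 to 30.3, 36.9 to 54.7 and 47.3 to 77.8 CPM, mostly PECAM1. The part of these shifts in the results was not tested.

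Of the 55 members, 54 had a CPM above 1 in at least 3 samples and were tested with edgeR's quasi-likelihood test, whose adjusted p and standard error (SE) are given for log2 fold changes, and a signed value in parentheses or before one is a log2 fold change. At day 7 more members were higher than lower compared with 2D: 19 rose (35.2%) and 6 fell (11.1%), where 22.2% of all 13463 tested genes rose and 21.2% fell. At day 14, 10 members rose and 10 fell (18.5% each, against 19% and 17.2% of all genes), so that the share was near that of the whole transcriptome in both directions. From day 7 to day 14, 20 members fell (37%) and 1 rose (1.85%), against 13.6% and 14.5% of all genes. The median log2 fold change of the members was 0.22 at day 7, -0.027 at day 14 and -0.26 between the time points, beside -0.0039, 0.023 and -0.0012 over all tested genes. In either direction 25, 20 and 21 of the 54 passed, where 43.4%, 36.2% and 28.1% of all genes did. Without reference to a test, all day 7 samples lay above all 2D samples for 27 members and below them for 14 (32.2% and 32.4% of all genes). All day 14 samples lay above all 2D samples for 11 and below for 15 (24.2% and 25.5%), and above all day 7 samples for 2 and below for 27 (18.9% and 20.5%). In bulk RNA, fewer cells expressing a gene and less RNA per cell cannot be told apart. Both time points were compared with the same 2D samples. The shares of all genes come from the fit of all 9 samples with TMM factors. The counts that follow, under other settings, have no such share beside them. The count of members that fell from day 7 to day 14 came to 10 when day 7 replicate 2 was left out and 9 when day 7 replicate 3 was, and the count that rose to 6 without day 14 replicate 2. At day 14, leaving out 2D replicate 1 or 2D replicate 2 left 6 members higher in each case, and leaving out 2D replicate 3 left 6 lower. With total counts alone in place of TMM factors, which moved the median of all genes to -0.16 at day 7 and -0.18 at day 14, 15 members rose and 10 fell at day 7, and 5 rose and 17 fell at day 14.

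**Figure D1:**
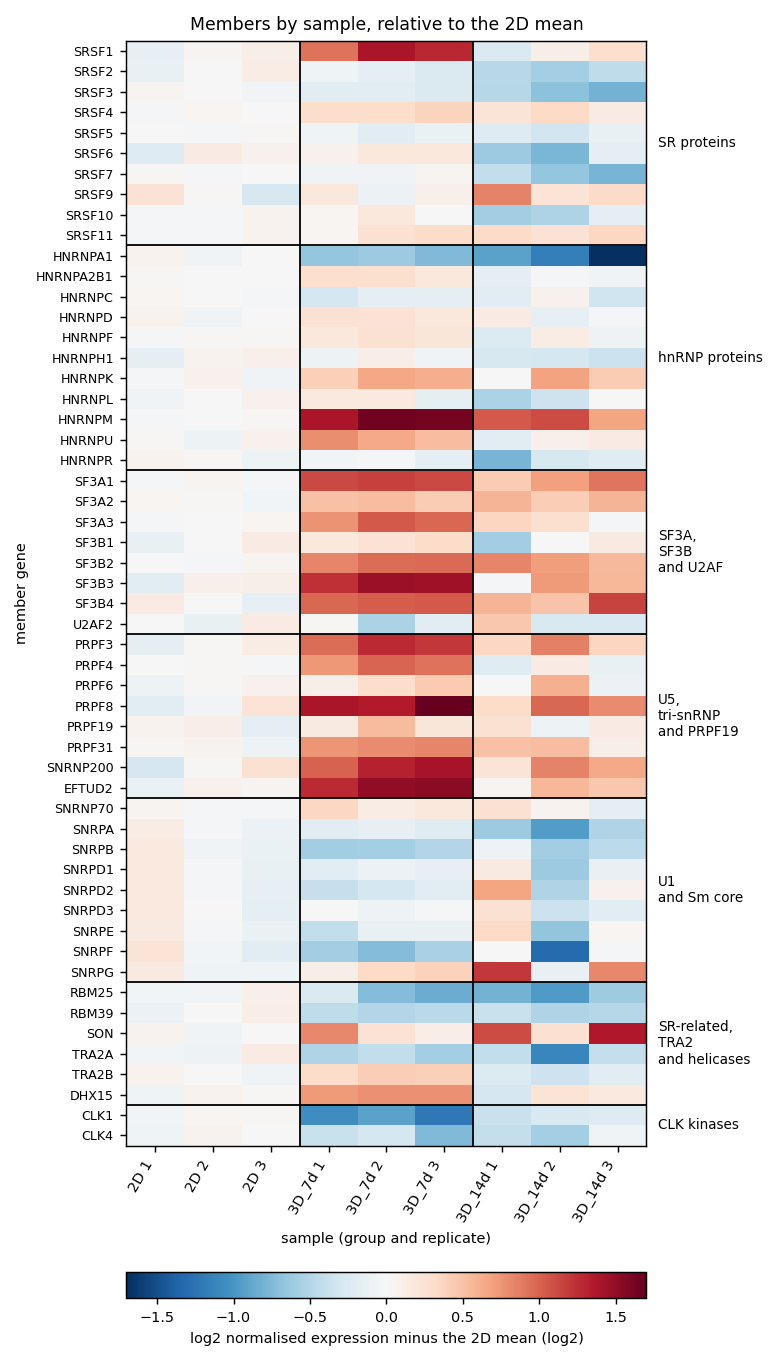
Log2 normalised expression of the 54 tested members (rows, grouped by role) in each of the 9 samples (columns), as the difference from the mean of the 2D samples. Red marks values above the 2D mean and blue values below it, and the SF3A, SF3B and tri-snRNP rows are red in the 3 day 7 samples.

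The members were sorted by their calls over the 3 comparisons. In 9 of them the level rose at day 7, fell from day 7 to day 14, and did not differ from 2D past the threshold at day 14 (SRSF1, HNRNPU, SF3A3, SF3B3, PRPF4, PRPF31, EFTUD2, TRA2B and DHX15). A further 5 rose at day 7, fell afterwards and still passed the test as higher than 2D at day 14 (HNRNPM, SF3A1, PRPF3, PRPF8 and SNRNP200). The rise at day 7 and the fall from day 7 to day 14 use the same day 7 samples with opposite sign. Those calls are therefore not independent, and high values in the day 7 samples alone would give both. Another 3 were higher at both times with no change between them past the threshold (SF3A2, SF3B2 and SF3B4). No call at day 7 but a fall at day 14 against both 2D and day 7 was seen for 5 members (SRSF3, SRSF6, SRSF7, SRSF10 and SNRPA). HNRNPA1 fell in all 3 comparisons, RBM25, RBM39 and TRA2A were lower than 2D at both times, and CLK1 fell at day 7 and rose from day 7 to day 14. The remaining called members were SRSF2 (lower at day 14), SNRPB (lower at day 7), SRSF4 and HNRNPK (higher at day 7), and SNRPG and SON (higher at day 14), while 21 members passed in no comparison.

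**Figure D2:**
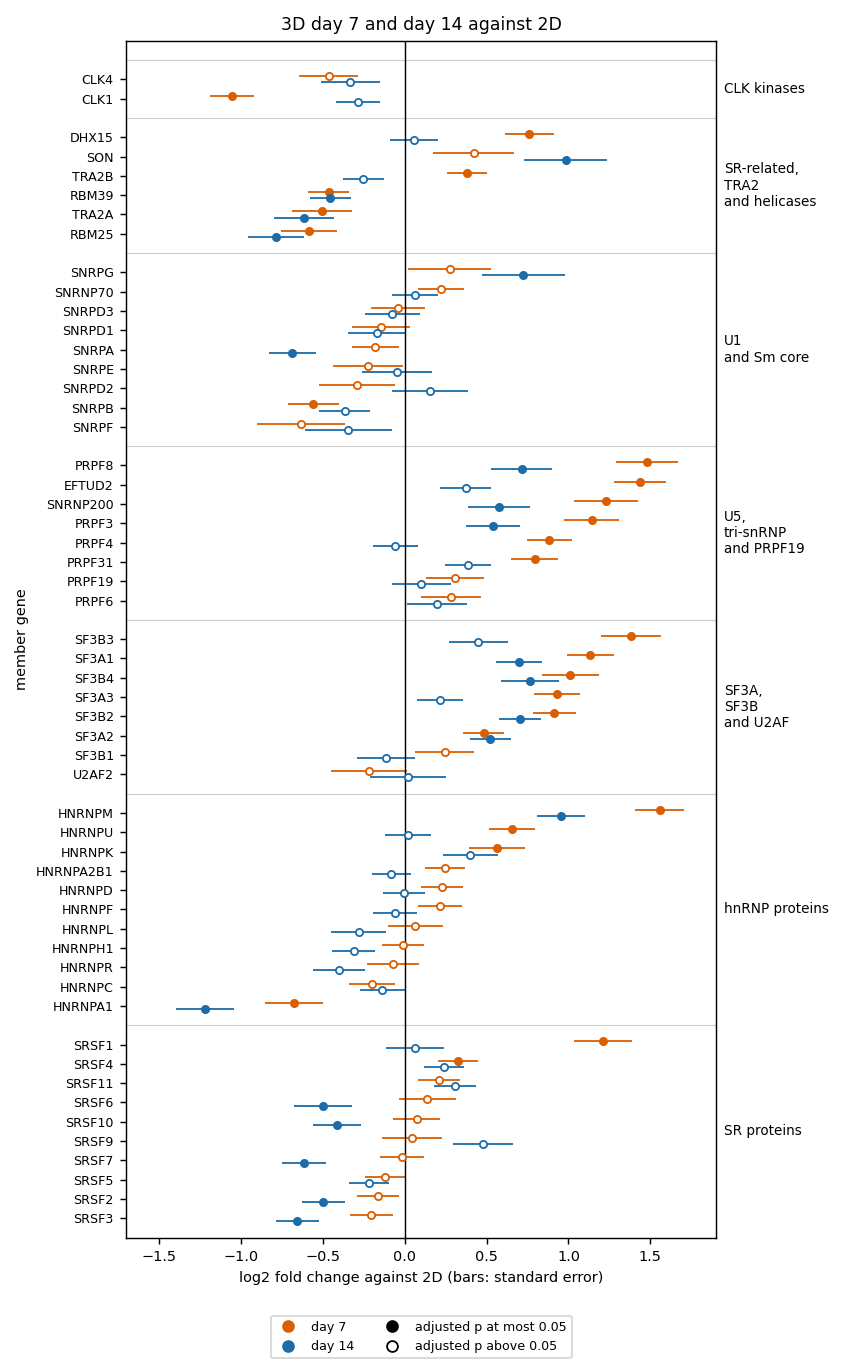
Log2 fold change against 2D (horizontal axis, bars give the standard error) of each tested member at day 7 (orange) and day 14 (blue), with filled points for an adjusted p of at most 0.05. At day 7 the filled points of the SF3A, SF3B and U5 groups lie to the right of 0, and at day 14 those of the SR proteins lie to the left.

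The SF3A and SF3B subunits of U2 and the U2AF subunit U2AF2 act at the branch point and 3′ splice site. Of these 8 members, 6 rose at day 7 and none fell (75% and 0%, against 22.2% and 21.2% of all genes). At day 14, 4 were higher than in 2D and none lower (50% and 0%, against 19% and 17.2% of all genes). From day 7 to day 14 none rose and 3 fell (37.5% down, against 14.5% up and 13.6% down of all genes). The group medians on the log2 scale were 0.92, 0.49 and -0.30, in that order. SF3B3, a scaffold subunit of SF3B, had 111, 134 and 135 CPM in the 2D samples, 299.8, 350.1 and 344 CPM at day 7 and 125, 209 and 186 CPM at day 14. All day 7 samples were above all others, and day 14 overlapped 2D through replicate 1. Its log2 fold change was 1.38 (SE 0.19, adjusted p = 0.000116) at day 7, 0.45 (SE 0.18, adjusted p = 0.0702) at day 14 and -0.93 (SE 0.18, adjusted p = 0.00341) from day 7 to day 14. SF3A1, the largest subunit of SF3A, measured 80.2, 84.2 and 80.3 CPM in the 2D samples, 178, 182 and 177 CPM at day 7 and 110.5, 132 and 154 CPM at day 14. Its groups did not overlap in any comparison, with a log2 fold change of 1.13 (SE 0.14, adjusted p = 7.78e-05) at day 7 and 0.70 (SE 0.14, adjusted p = 0.00244) at day 14. The fall from day 7 to day 14 (-0.44, adjusted p = 0.0357) was lost in 11 of 19 alternatives, among them leaving out any 2D sample, any day 7 sample or day 14 replicate 1. SF3B2, which contacts the pre-mRNA near the branch point, had 253, 248 and 261 CPM in the 2D samples, 450.0, 490.1 and 497 CPM at day 7 and 453, 416 and 373 CPM at day 14. Both 3D groups lay above 2D and overlapped each other, at 0.91 (SE 0.13, adjusted p = 0.000176) for day 7 and 0.70 (SE 0.13, adjusted p = 0.00128) for day 14.

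SF3B4, an RNA recognition motif protein of the same particle, had 84.3 ± 8.32 CPM (mean ± SD, n = 3) in 2D, 169.8 ± 4.32 at day 7 and 143 ± 37.9 at day 14, with a log2 fold change of 1.01 (adjusted p = 0.000658) and 0.76 (adjusted p = 0.00471) against 2D. SF3A3 rose at day 7 by 0.93 (adjusted p = 0.000294) on the log2 scale and fell from day 7 to day 14 (-0.72, adjusted p = 0.00363). The change of SF3A2 was smaller, 0.48 (adjusted p = 0.00843) at day 7 and 0.52 (adjusted p = 0.00656) at day 14. The call of SF3A2 was lost at day 7 without 2D replicate 2, 2D replicate 3 or day 7 replicate 2, and at day 14 without 2D replicate 3; 4.8% of its exonic bases are shared with PLEKHJ1 on the opposite strand. SF3B1 itself, at 366 ± 33.5, 434 ± 21.0 and 338 ± 85.98 CPM, had a log2 fold change of 0.24 (adjusted p = 0.29) at day 7 and -0.12 (adjusted p = 0.645) at day 14. All its day 7 samples lay above all 2D samples, but the call did not extend to SF3B1. Neither did it extend to U2AF2, the large U2AF subunit that binds the polypyrimidine tract, with 13.4, 12.4 and 14.8 CPM in the 2D samples, 13.7, 9.29 and 11.8 CPM at day 7 and 18.6, 11.3 and 11.2 CPM at day 14. U2AF2 was also the member with the lowest level among the 54 tested per exon length in 2D, 4.44 ± 0.399 RPKM, which is CPM divided by the exon length in kilobases.

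Most promoters of this group held a sequence that the choice of members did not use. Of the 55 members, 48 matched a RefSeq promoter window (GRCh38.p14, 250 bases before to 50 bases after the gene start), and 12 short motifs were searched on both strands. The ETS core CCGGAAGT, or ACTTCCGG on the other strand, was present in 13 of the 48 member windows (27.1%), in 9.49% of the 9441 windows of tested genes and in 4.4% of all 27305 windows of the same length. It was singled out after the counts of all motifs were seen, so the share is a description and carries no test. In the SF3A, SF3B and U2AF group 6 of the 7 matched windows held it, while that of SF3B1 did not and SF3B3 was not matched. The stretches around the 6 matches are printed 5′ to 3′ along the gene, with the ETS core in capitals.
SF3A1, chr22:30356876-30357003, minus strand: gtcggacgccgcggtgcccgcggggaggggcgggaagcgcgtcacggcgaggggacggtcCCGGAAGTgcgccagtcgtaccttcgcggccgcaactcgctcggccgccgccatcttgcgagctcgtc
SF3A2, chr19:2236755-2236848, plus strand: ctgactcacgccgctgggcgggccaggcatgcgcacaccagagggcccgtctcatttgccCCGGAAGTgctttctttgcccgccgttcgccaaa
SF3A3, chr1:37990024-37990151, minus strand: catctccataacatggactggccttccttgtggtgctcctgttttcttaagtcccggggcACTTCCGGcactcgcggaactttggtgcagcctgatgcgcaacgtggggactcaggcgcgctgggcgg
SF3B2, chr11:66052251-66052378, plus strand: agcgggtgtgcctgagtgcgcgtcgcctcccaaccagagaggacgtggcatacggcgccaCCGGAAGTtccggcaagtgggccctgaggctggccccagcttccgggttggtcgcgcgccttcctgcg
SF3B4, chr1:149927779-149927889, minus strand: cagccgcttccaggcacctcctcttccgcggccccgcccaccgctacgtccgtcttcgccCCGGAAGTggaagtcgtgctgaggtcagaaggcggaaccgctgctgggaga
U2AF2, chr19:55654945-55655059, plus strand: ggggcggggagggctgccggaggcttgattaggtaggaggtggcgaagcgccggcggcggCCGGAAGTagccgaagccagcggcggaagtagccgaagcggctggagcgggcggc
The core began 49 bases before the start of SF3A1, 9 before SF3A2, 69 before SF3A3, 53 before SF3B2, 26 before SF3B4 and 30 before U2AF2, and only SF3A3 carried it in the reverse orientation. U2AF2 holds the core and passed in none of the 3 comparisons. In the U5 and tri-snRNP group, whose members rose as often at day 7, 1 of 7 matched windows (PRPF6) held it. Of the other motifs, the member shares beside those of tested genes were 20.8% and 12.4% for the NRF1 motif, 10.4% and 10.4% for the E-box CACGTG, 10.4% and 5.49% for TATAAA, 6.2% and 4.24% for the YY1 motif AAGATGGCG, 2.1% and 0.318% for the HSF motif and 0 of 48 and 3.28% for TGACGTCA. They were 4.2% and 0.805% for TGACGTAA, 60.4% and 69.6% for the GC box GGGCGG, 33.3% and 37.3% for CCAAT, 4.2% and 0.996% for the ZBTB33 motif and 0 of 48 and 0.0318% for the SRF motif. Median GC content was 62.7% in the member windows and 65.0% in those of tested genes.

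The proteins of the U5 particle and the tri-snRNP, grouped with PRPF19, had the highest median of any role at day 7. Of 8 members, 6 rose and none fell (75% and 0%, against 22.2% and 21.2% of all genes), with a median log2 fold change of 1.01. All 8 had every day 7 sample above every 2D sample, as did 32.2% of all tested genes. At day 14, 3 were still higher than in 2D (37.5%, against 19% of all genes), with a median of 0.38. From day 7 to day 14, 6 fell and none rose (75% down, against 13.6% of all genes), with a median of -0.63. PRPF8, the scaffold of the catalytic centre, measured 76.7, 84.6 and 102 CPM in the 2D samples, 228, 223 and 284 CPM at day 7 and 108, 172 and 152 CPM at day 14. The 3 groups did not overlap, with day 14 in between, and the log2 fold change was 1.48 (SE 0.19, adjusted p = 8.49e-05) at day 7 and 0.71 (SE 0.19, adjusted p = 0.00987) at day 14. The fall of PRPF8 from day 7 to day 14 was -0.77 (adjusted p = 0.00987); it reached an adjusted p of 0.05004 without day 7 replicate 3, and the call at day 14 was lost without 2D replicate 1 or 2D replicate 2. EFTUD2, the GTPase that works with PRPF8, had 138, 158 and 154 CPM in the 2D samples, 360.0, 424 and 433 CPM at day 7 and 155, 221 and 205 CPM at day 14. It rose 2.71-fold at day 7, a log2 fold change of 1.44 (SE 0.16, adjusted p = 3.34e-05), and fell by day 14 (-1.06, SE 0.16, adjusted p = 0.00072), where it overlapped 2D. PRPF4, a U4/U6 protein, was at 86.6, 86.8 and 84.1 CPM in the 2D samples, 142, 169.8 and 163 CPM at day 7 and 74.4, 94.5 and 78.7 CPM at day 14. Its day 14 samples lay on both sides of 2D, with log2 fold changes of 0.88 (SE 0.14, adjusted p = 0.000346) at day 7, -0.057 (SE 0.14, adjusted p = 0.777) at day 14 and -0.94 (SE 0.14, adjusted p = 0.000704) between the time points.

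SNRNP200, the helicase that unwinds U4 from U6, had 154 ± 28.8, 362 ± 50.9 and 230.0 ± 48.7 CPM (2D, day 7, day 14). Against 2D the log2 difference was 1.23 (adjusted p = 0.000345) at day 7 and 0.58 (adjusted p = 0.0324) at day 14, the latter lost without 2D replicate 1, 2D replicate 2, day 7 replicate 2, day 14 replicate 2 or day 14 replicate 3. Its fall from day 7 to day 14 (-0.65, adjusted p = 0.0233) was lost without day 7 replicate 2, day 7 replicate 3 or day 14 replicate 1. PRPF3, which binds the same U4/U6 duplex, rose by 1.14 (adjusted p = 0.000223) at day 7 and 0.54 (adjusted p = 0.0234) at day 14. The day 14 call of PRPF3 was lost without any 2D sample or without day 14 replicate 2, and its fall between time points (-0.60, adjusted p = 0.018) without day 7 replicate 2, day 7 replicate 3 or day 14 replicate 3. PRPF31, another U4/U6 protein, rose at day 7 (0.79, adjusted p = 0.000835). At day 14 all its samples still lay above all 2D samples, and it narrowly missed the threshold (0.39, adjusted p = 0.0502). The fall of PRPF31 between time points (-0.41, adjusted p = 0.0482) was lost in 13 of 19 alternatives. Among them were leaving out any 2D sample, any day 7 sample or day 14 replicate 3. For PRPF31, 37.7% of the exonic bases are shared with other annotated genes. PRPF6, a bridging protein of the tri-snRNP (0.28, adjusted p = 0.228 at day 7), and PRPF19, a ubiquitin ligase of the activating complex (0.31, adjusted p = 0.181), passed in no comparison.

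**Figure D3:**
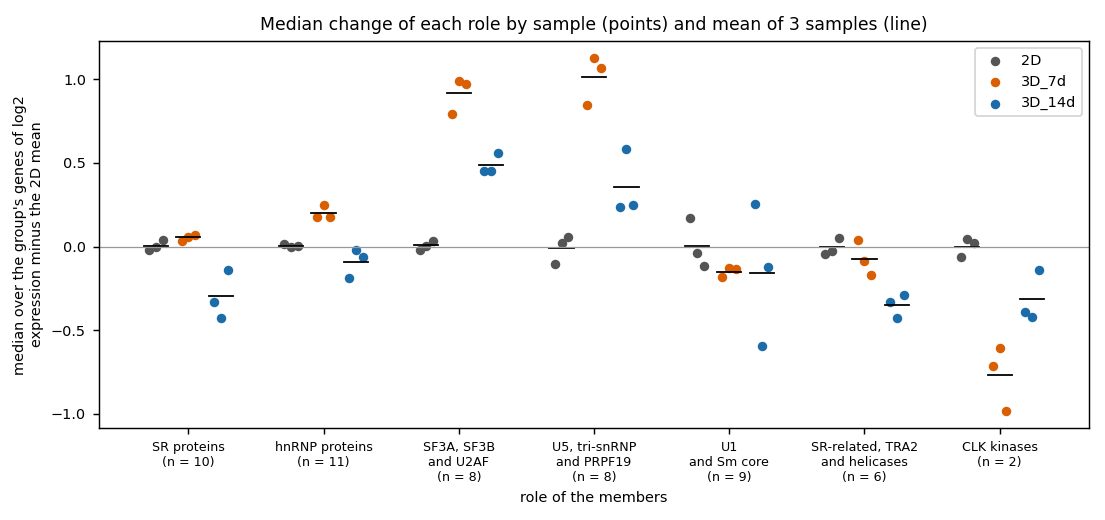
Median over the members of each role of the log2 normalised expression relative to the 2D mean, for each sample, with 1 point per sample and colours by group. The U5 and tri-snRNP group lies between 0.85 and 1.12 at day 7 and between 0.24 and 0.58 at day 14, and the U1 and Sm core group spreads from -0.60 to 0.25 at day 14.

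Of the 10 SR proteins, 2 rose and none fell at day 7 (median log2 fold change 0.059), and the 20% that rose is near the 22.2% of all genes. At day 14 none rose and 5 fell against 2D (50%, against 17.2% of all genes; median -0.32), and from day 7 to day 14 none rose and 5 fell (50%, against 13.6%; median -0.39). SRSF1, the prototype of the family, had 33.8, 38.4 and 40.1 CPM in the 2D samples, 70.8, 97.8 and 90.9 CPM at day 7 and 31.6, 40.0 and 45.7 CPM at day 14. Every day 7 sample was above every other sample, and day 14 overlapped 2D. Its log2 fold change was 1.21 (SE 0.18, adjusted p = 0.000214) at day 7, 0.062 (SE 0.17, adjusted p = 0.808) at day 14 and -1.15 (SE 0.18, adjusted p = 0.000896) between the time points; 34.4% of its exonic bases are shared, mostly with the same-strand gene AC015813.2, which had no reads in any sample. SRSF3, the smallest SR protein, was at 502, 485 and 469 CPM in the 2D samples, 426, 429 and 408 CPM at day 7 and 347, 298 and 278 CPM at day 14. No group overlapped another, but the difference at day 7 did not pass (-0.21, SE 0.13, adjusted p = 0.223), while that at day 14 did (-0.66, SE 0.13, adjusted p = 0.00219). The fall of SRSF3 from day 7 to day 14 (-0.45, adjusted p = 0.0224) was lost in 8 of 19 alternatives, among them leaving out 2D replicate 2 or any day 7 sample. SRSF4 was at 198, 204 and 198 CPM in the 2D samples, 247, 246 and 259 CPM at day 7 and 233, 254 and 221 CPM at day 14. Its rise at day 7 (0.33, SE 0.12, adjusted p = 0.0481) was lost in 12 of 19 alternatives, among them leaving out any 2D or day 7 sample.

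SRSF7, a zinc knuckle protein close to SRSF3, measured 359.7 ± 5.90 CPM in the 2D samples, 355 ± 15.6 at day 7 and 235 ± 31.6 at day 14, and fell against both (-0.62, adjusted p = 0.0038 and -0.60, adjusted p = 0.00695). SRSF2, which is a mutation target in myeloid neoplasms, fell at day 14 (-0.50, adjusted p = 0.00985), with 34.7% of its exonic bases shared with MFSD11 on the opposite strand. SRSF6 and SRSF10 also fell at day 14, with log2 fold changes of -0.50 (adjusted p = 0.0427) and -0.41 (adjusted p = 0.0406). The call of SRSF10 against 2D was lost in 12 of 19 alternatives, among them every sample left out except day 7 replicate 1 and day 14 replicate 3. The call of SRSF6 was lost in 9, among them 2D replicates 2 and 3, day 7 replicates 2 and 3, and day 14 replicates 1 and 2. From day 7 to day 14, SRSF6 changed by -0.64 (adjusted p = 0.0186), lost without day 7 replicate 2 or 3, and SRSF10 by -0.49 (adjusted p = 0.0259), lost without 2D replicates 1 or 2, day 7 replicates 2 or 3, or day 14 replicate 2. SRSF5, SRSF9 and SRSF11 passed in no comparison. SRSF9 had a log2 fold change of 0.48 (adjusted p = 0.06) at day 14, where replicate 1 was at 328 CPM and the other two at 216 and 230.5, and 42.6% of its exonic bases are shared with GATC on the opposite strand.

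Of the 11 hnRNP proteins, 3 rose and 1 fell at day 7 (27.3% and 9.09%, against 22.2% and 21.2% of all genes; median log2 fold change 0.22). At day 14, 1 rose and 1 fell (9.09% each, against 19% and 17.2%; median -0.082), and from day 7 to day 14 none rose and 3 fell (27.3% down, against 13.6%; median -0.33). HNRNPM, which binds GU-rich RNA and can repress or activate exons, had 309.5, 313 and 318 CPM in the 2D samples, 822, 975 and 972 CPM at day 7 and 647, 676 and 499.5 CPM at day 14. Each 3D sample was above each 2D sample. HNRNPM rose 2.94-fold at day 7 (1.56, SE 0.15, adjusted p = 1.36e-05 on the log2 scale) and was 1.94-fold higher at day 14 (0.95, SE 0.15, adjusted p = 0.000433). Its fall between time points (-0.60, SE 0.15, adjusted p = 0.01) was lost without day 7 replicate 2 or 3. HNRNPA1, which binds exonic and intronic silencers, went the other way, with 419, 385 and 398 CPM in the 2D samples, 253, 259.9 and 239 CPM at day 7 and 213, 178 and 123 CPM at day 14. The groups did not overlap in any comparison, at -0.68 (SE 0.18, adjusted p = 0.00816) for day 7 and -1.22 (SE 0.18, adjusted p = 0.000297) for day 14. The further change between time points (-0.55, adjusted p = 0.0354) was lost in 10 of 19 alternatives, among them leaving out any 2D sample, any day 7 sample or day 14 replicate 3. HNRNPA1 has many near-identical copies, and reads on its 75 annotated pseudogene rows came to 0.597% to 2.48% of its own reads per sample, so a part of its reads may be counted elsewhere.

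HNRNPU, also known as scaffold attachment factor A, was at 539.8, 501 and 563 CPM in the 2D samples, 924, 834 and 769 CPM at day 7 and 469.6, 568 and 588 CPM at day 14. It was higher in all day 7 samples than in any other sample, at 0.66 (SE 0.14, adjusted p = 0.00251) against 2D and -0.64 (SE 0.14, adjusted p = 0.00606) for the return by day 14, where the value against 2D was 0.02 (adjusted p = 0.926). HNRNPK, which binds C-rich sequences and had the second highest level per exon length in 2D (288 RPKM), rose at day 7 by 0.56 (adjusted p = 0.0168) on the log2 scale. This call of HNRNPK was lost without any 2D sample or without day 7 replicate 2 or 3. The other hnRNP members (A2B1, C, D, F, H1, L and R) passed in no comparison, their day 7 log2 fold changes lying between -0.20 and 0.25 and their day 14 ones between -0.40 and -0.0058.

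No protein of U1 or of the Sm ring, which is common to the U1, U2, U4 and U5 particles, rose at day 7. Of 9 members, 1 fell at day 7 (11.1%), where 22.2% of all genes rose and 21.2% fell. At day 14, 1 rose and 1 fell (11.1% each, against 19% and 17.2% of all genes). From day 7 to day 14 none rose and 1 fell (11.1% down, against 14.5% up and 13.6% down of all genes). The medians on the log2 scale were -0.18, -0.076 and 0.18, in that order. SNRPB, the Sm protein with the highest level per exon length of all members in 2D (402.5 ± 43.2 RPKM), had 521, 444 and 428 CPM in the 2D samples, 308, 311 and 328 CPM at day 7 and 435, 306 and 339.7 CPM at day 14. It fell at day 7 (-0.56, SE 0.15, adjusted p = 0.0113), a call lost without 2D replicate 1 or when the trend with gene length was removed. At day 14 SNRPB overlapped 2D (-0.37, SE 0.15, adjusted p = 0.0795), but passed as lower with that trend removed (-0.44, adjusted p = 0.00975). SNRPA, the A protein of U1, was at 104, 93.3 and 89.2 CPM in the 2D samples, 84.0, 86.7 and 82.4 CPM at day 7 and 62.0, 49.4 and 66.9 CPM at day 14. Its day 14 samples were below all others, at -0.69 (SE 0.15, adjusted p = 0.00309) against 2D and -0.51 (SE 0.15, adjusted p = 0.0214) against day 7, the latter lost without 2D replicate 2, day 7 replicate 2 or day 7 replicate 3. SNRPF, another ring subunit, had 97.7, 79.9 and 72.9 CPM in the 2D samples, 54.8, 49.7 and 56.7 CPM at day 7 and 82.5, 33.5 and 81.4 CPM at day 14. Neither its value at day 7 (-0.64, SE 0.27, adjusted p = 0.0721) nor that at day 14 (-0.34, SE 0.27, adjusted p = 0.337) passed.

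The ring subunits were spread most within day 14. SNRPD2 was at 519, 229 and 340.1 CPM in day 14 replicates 1, 2 and 3, SNRPE at 142, 70.7 and 116, and SNRPG at 202, 80.2 and 154. Replicate 1 was the highest and replicate 2 the lowest for each, and the share of reads on ribosomal protein genes had the same order (3.10%, 1.81% and 2.18%), whose part in this spread was not tested. SNRPG was called higher than 2D at day 14 (0.72, adjusted p = 0.0399) although the groups overlapped, and the call was lost in 11 of 19 alternatives, among them every sample left out except day 14 replicate 2. For SNRPG, 20 pseudogene rows held 3.18% to 4.30% as many reads as the gene. Apart from alternative settings, the U1 protein SNRNP70 and the Sm proteins SNRPD1, SNRPD2, SNRPD3 and SNRPE passed in no comparison.

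The SR-related proteins, TRA2 proteins and helicases split by member. Of the 6 tested, 2 rose and 3 fell at day 7 (33.3% and 50%, against 22.2% and 21.2% of all genes). At day 14, 1 rose and 3 fell (16.7% and 50%, against 19% and 17.2%). From day 7 to day 14 none rose and 2 fell (33.3% down, against 14.5% up and 13.6% down of all genes). The medians were -0.043, -0.35 and -0.16. DHX15, the helicase that disassembles spliceosomes, had 131, 143 and 139.9 CPM in the 2D samples, 229, 237 and 236 CPM at day 7 and 113, 163 and 155 CPM at day 14. It was higher in all day 7 samples than in the rest, at 0.76 (SE 0.15, adjusted p = 0.00151) against 2D and -0.70 (SE 0.15, adjusted p = 0.00511) from day 7 to day 14. TRA2B, an SR-like activator of exons, measured 184, 177 and 169 CPM in the 2D samples, 220.3, 236 and 233 CPM at day 7 and 150.4, 139 and 156 CPM at day 14. Its day 14 samples were below all 2D and day 7 samples, and it fell between the time points (-0.63, SE 0.12, adjusted p = 0.00339). The rise of TRA2B at day 7 (0.38, adjusted p = 0.0255) was lost in 9 of 19 alternatives, among them any 2D sample or day 7 replicate 2 or 3 left out. RBM25, which binds exonic enhancers, had 118, 118 and 129 CPM in the 2D samples, 103, 73.1 and 67.9 CPM at day 7 and 69.6, 62.5 and 80.0 CPM at day 14. No 3D sample reached the 2D range; the call at day 14 (-0.78, SE 0.17, adjusted p = 0.00359) held in all 19 alternatives, and that at day 7 (-0.58, SE 0.17, adjusted p = 0.0147) was lost without day 7 replicate 2 or 3. RBM39, a U2AF-like cofactor, was at 297, 317 and 344 CPM in the 2D samples, 236, 225 and 233 CPM at day 7 and 246, 224 and 228 CPM at day 14. Both 3D groups lay below 2D and overlapped each other (-0.47, SE 0.13, adjusted p = 0.00969 and -0.46, SE 0.13, adjusted p = 0.0132), and the day 14 call was lost without 2D replicate 3.

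TRA2A, the paralog of TRA2B, fell at both times (-0.51, adjusted p = 0.0394 and -0.62, adjusted p = 0.0192). For TRA2A the day 7 call was lost in 10 of 19 alternatives, among them any 2D or day 7 sample left out, and the day 14 call without 2D replicate 3. TRA2A and TRA2B thus had log2 fold changes of opposite sign at day 7. SON, a scaffold of nuclear speckles, rose at day 14 (0.98, adjusted p = 0.00892), with 169, 156 and 164 CPM in the 2D samples, 286, 193 and 176 CPM at day 7 and 353, 194 and 419 CPM at day 14. DDX39B, a helicase of early spliceosome assembly and mRNA export, had 0 to 4 reads in every sample and was not tested. In the annotation 89.3% of its exonic bases are shared with other genes, 85.0% with the readthrough gene ATP6V1G2-DDX39B, which had no reads, and its level is uncertain.

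The CLK kinases phosphorylate SR proteins and release them from speckles. CLK1 had 85.7, 90.5 and 90.5 CPM in the 2D samples, 42.7, 47.4 and 38.3 CPM at day 7 and 68.6, 74.0 and 76.5 CPM at day 14. It fell to 0.481 of the 2D level at day 7 (-1.05, SE 0.14, adjusted p = 8.76e-05), the day 14 samples lay between both groups (-0.28, SE 0.13, adjusted p = 0.115 against 2D), and the rise from day 7 to day 14 was 0.77 (SE 0.13, adjusted p = 0.00179). These calls held in all 19 alternatives. CLK1 was the single member that rose between the time points. CLK4 was at 31.6, 34.7 and 33.5 CPM in the 2D samples, 25.6, 26.9 and 19.8 CPM at day 7 and 25.1, 22.3 and 31.9 CPM at day 14. Every day 7 sample was below every 2D sample, with -0.47 (SE 0.18, adjusted p = 0.0507) at day 7, and day 14 overlapped both groups.

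**Figure D4:**
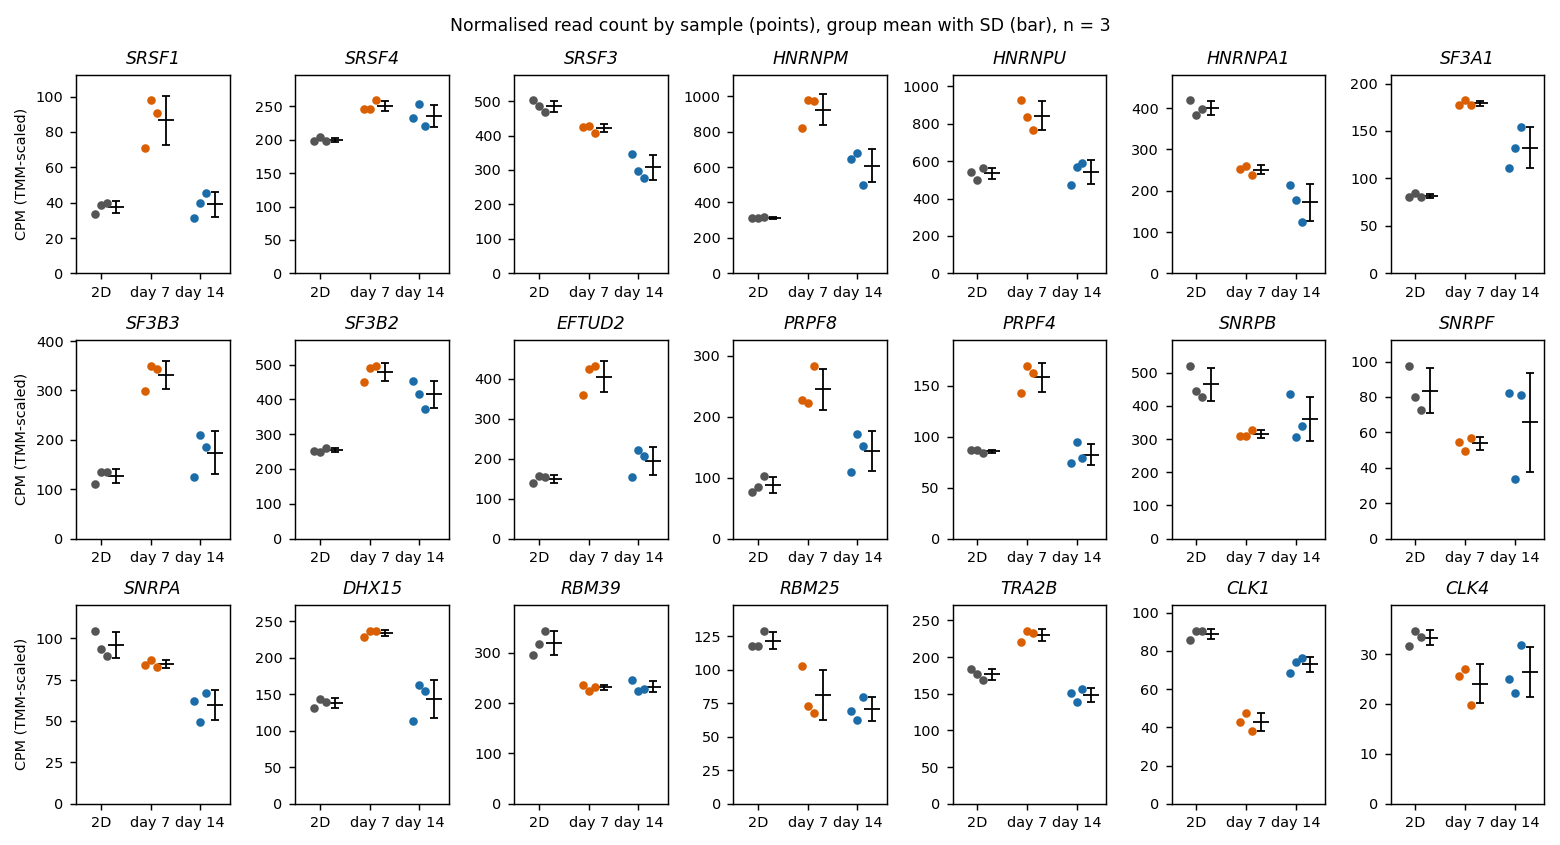
CPM after TMM scaling in each sample (points) for 21 members chosen by the smallest p-values within each role, with the group mean and SD (n = 3) beside the points and every axis starting at 0. PRPF8, EFTUD2 and SRSF1 peak at day 7, HNRNPA1 and SRSF3 decline from 2D to day 14, and CLK1 dips at day 7.

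Other genes of the splicing pathway were taken from 9 lists, with 162 tested of 168 listed. At day 7, 48 rose (29.6%) and 19 fell (11.7%), at day 14 25 rose (15.4%) and 22 fell (13.6%), and from day 7 to day 14 9 rose (5.56%) and 41 fell (25.3%). Of all genes, 22.2% rose and 21.2% fell at day 7, 19% and 17.2% at day 14, and 14.5% and 13.6% from day 7 to day 14, and the counts of the single lists are to be read against these shares. These shares do not apply to the counts with a sample left out. Without a sample, the count at day 14 that rose was 10, 7 and 8 for 2D replicates 1, 2 and 3, 15 for day 7 replicate 2 and 16 for day 7 replicate 3, and the count that fell was 14 for 2D replicate 3. From day 7 to day 14, 20 fell without day 7 replicate 2 and 20 without day 7 replicate 3, and the count that rose was 2 and 3 without these and 20 without day 14 replicate 2; 12 fell at day 7 without day 7 replicate 3. The additional tri-snRNP, PRPF19 complex and catalytic factors, 35 genes, had 14 up and 2 down at day 7, 6 and 1 at day 14, and 2 and 12 from day 7 to day 14. CRNKL1, which joins the complex at catalysis, rose at day 7 (0.91, adjusted p = 0.000259) and fell afterwards (-0.96, adjusted p = 0.000565). CWC22, an exon junction loading factor, fell at day 14 (-1.12, adjusted p = 0.00122), and SYF2 rose between the time points (0.67, adjusted p = 0.0122). The additional U1, U2 and LSM proteins, 26 genes, had 3 up and 3 down at both times, with LUC7L3, a U1-associated protein, down at day 7 (-0.83, adjusted p = 0.000682). SNRPN, a tissue-specific counterpart of SNRPB, rose from day 7 to day 14 (1.09, adjusted p = 0.000656), and 21.4% of its exonic bases are shared with other genes.

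In the snRNP assembly list (14 genes, SMN complex and methylosome) 6 rose and 1 fell at day 7, and none rose and 6 fell from day 7 to day 14. WDR77, a methylosome subunit with 21.9% of its exonic bases shared, rose at day 7 (1.13, adjusted p = 6.12e-05), as did STRAP of the SMN complex (1.04, adjusted p = 0.000112). The SMN complex members GEMIN4 and GEMIN5 fell from day 7 to day 14 (-1.07, adjusted p = 0.000322 and -1.25, adjusted p = 0.000356). Further SR-related proteins (16 tested) had 6 up and 4 down at day 7 and 2 up and 4 down at day 14. PNN, a speckle protein, was lower at both times (-0.80, adjusted p = 0.000684 and -0.93, adjusted p = 0.000342), and BCLAF1 fell at day 14 (-1.09, adjusted p = 0.000635). Further hnRNP proteins (20 tested) had 5 up and 1 down at day 7 and 2 up and 5 down at day 14. Of 10 SR protein kinases and phosphatases, 3 rose and 1 fell at day 7 and 2 rose and 2 fell at day 14, among them PPP1CA, a catalytic subunit of protein phosphatase 1 (1.04, adjusted p = 0.000967), with 15.5% of its exonic bases shared with RAD9A on the opposite strand.

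**Figure D5:**
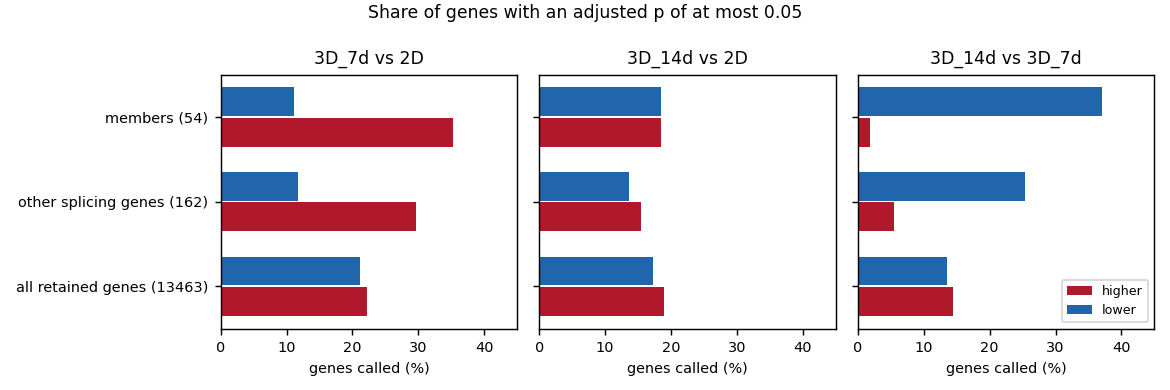
Percent of genes called higher or lower at an adjusted p of at most 0.05 in each comparison, for the 54 tested members, 162 other splicing genes and all 13463 tested genes (bars start at 0). The members stand at 35.2% higher at day 7 and 37% lower from day 7 to day 14, beside 22.2% and 13.6% of all genes.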

How the data were processed

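RNA sequencing of 9 samples of the MEC1 line (3 in 2D, 3 at day 7 and 3 at day 14 in 3D) was used. The values are raw read counts per gene symbol as deposited by the authors, who prepared SMART-Seq libraries, trimmed single reads with Trimmomatic (version 0.39), aligned them to GRCh38 with STAR (version 2.5.3a) and counted them with featureCounts (version 1.6.4); the strand and multi-mapping settings are not given in the sources used here. Reads from a gene and its antisense partner may therefore not be told apart. Depth was 54662799 to 85968686 assigned reads per sample.

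A gene was kept if its CPM exceeded 1 in 3 or more samples (13463 of 51726 with any read). In R (version 4.3.3), edgeR (version 4.0.16) was used for TMM factors, 1 fit of all 9 samples (6 residual degrees of freedom) and the quasi-likelihood test of 3 contrasts, with Benjamini-Hochberg adjustment over all retained genes and a threshold of 0.05. The standard error is the absolute log2 fold change divided by the square root of F. The alternatives were DESeq2 (version 1.42.0), other scalings and filters, a replicate block and leaving out each sample. Removal of the trend of the fold changes with gene length was a further alternative. No test was run with limma (version 3.58.1), which was only loaded. The test was tried on simulated data with log2 changes of 1 and 0.5, where many changes of 1 and nearly all of 0.5 were not called, and then also with changes of 2 and 1, a mixture added because the first recovered few. A member that did not pass may therefore still have changed. Exon overlaps and pseudogene rows were taken from the annotation on GRCh38 and promoter sequences from RefSeq (GRCh38.p14).

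Members and lists were chosen with earlier results of these data known. Within each role, the members given in every sample were the 2 with the smallest p at day 7 and the 1 with the smallest p in each other contrast; of the other lists, the 3 with the smallest p per contrast and direction among those past the threshold; and the members with the highest and lowest RPKM in 2D. Promoter motifs and members added beyond this rule were chosen after their values were seen. Same-numbered replicates were not treated as pairs.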

Additional observations from a re-analysis of the deposited data

Results flagged for a closer look

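The day 7 and day 14 effects against 2D share the 2D samples. The direct test of day 14 against day 7 gives their difference and shares the day 7 samples with the day 7 effect. It passed the threshold (edgeR, adjusted p of at most 0.05) for 21 members, and the values here are the log2 fold changes from day 7 to day 14. In the U5 and tri-snRNP group they were -1.06 for EFTUD2, -0.94 for PRPF4, -0.77 for PRPF8, -0.65 for SNRNP200, -0.60 for PRPF3 and -0.41 for PRPF31. For SF3A and SF3B they were -0.93 for SF3B3, -0.72 for SF3A3 and -0.44 for SF3A1. The SR proteins gave -1.15 for SRSF1, -0.64 for SRSF6, -0.60 for SRSF7, -0.49 for SRSF10 and -0.45 for SRSF3. Among the hnRNP proteins the differences were -0.64 for HNRNPU, -0.60 for HNRNPM and -0.55 for HNRNPA1. The others were -0.70 for DHX15, -0.63 for TRA2B and -0.51 for SNRPA, and CLK1 differed in the other direction at 0.77. Groups of 3 samples are too small for a test of single outlying samples.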

How the results depend on the processing

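Of the members called, 17 of 25 at day 7, 11 of 20 at day 14 and 10 of 21 from day 7 to day 14 were called in all 19 alternatives, and no called member changed sign in any. The share of all genes called was not taken under the alternatives, so the counts below have none beside them. Of the members not called, 29, 34 and 33 per contrast, 8, 17 and 13 changed sign in some alternative and 11, 15 and 11 were called in some. With each sample left out in turn, members up and down ranged over 15 to 19 and 4 to 8 at day 7, 6 to 12 and 6 to 13 at day 14, and 1 to 6 and 9 to 21 from day 7 to day 14, and their medians over 0.15 to 0.22, -0.075 to 0.0018 and -0.31 to -0.23. The other splicing genes ranged over 35 to 61 and 12 to 28, 7 to 27 and 14 to 28, and 2 to 20 and 20 to 51. With a minimum absolute log2 fold change of 1, which removes smaller changes by construction, members gave 9 up and 1 down at day 7, 0 and 1 at day 14, and 0 and 2 from day 7 to day 14, and other genes 13 up and 1 down at day 7, 2 and 3 at day 14, and 1 and 3 from day 7 to day 14. With total counts alone members gave 15 up and 10 down at day 7, 5 and 17 at day 14, and 1 and 21 from day 7 to day 14, with medians 0.063, -0.23, -0.30, and other genes 38 up and 27 down at day 7, 7 and 40 at day 14, and 7 and 44 from day 7 to day 14. With only the 6 samples of a contrast (fewer samples) members gave 23 up and 11 down at day 7, 8 and 8 at day 14, and 1 and 12 from day 7 to day 14, and other genes 64 up and 31 down at day 7, 12 and 19 at day 14, and 4 and 22 from day 7 to day 14. Removing the length trend gave members 20 up and 5 down at day 7, 16 and 10 at day 14, and 1 and 18 from day 7 to day 14, with medians 0.24, 0.031, -0.24, and other genes 60 up and 16 down at day 7, 39 and 22 at day 14, and 8 and 45 from day 7 to day 14. SRSF9, SRSF11, SF3B3, EFTUD2, PRPF31 and HNRNPK then passed as higher at day 14, and SNRPB as lower. No filter gave medians 0.22, -0.087, -0.32 and 10 other genes up at day 14, and TMM without immunoglobulin, ribosomal protein and mitochondrial genes a median of 0.18 at day 7. The cause was not tested. Correlations of the deviations from group means were -0.10 to 0.19 for same-numbered samples and -0.13 to 0.081 for other pairs. Between 2D and day 14 the same-numbered pairs had 0.19, 0.11 and 0.093, and the other pairs -0.13 to 0.040. Whether same-numbered samples are linked was not tested. A replicate block gave members 18 up and 7 down at day 7, 12 and 10 at day 14, and 1 and 19 from day 7 to day 14. With the length trend also removed, it gave 21 up and 5 down at day 7, 15 and 9 at day 14, and 2 and 17 from day 7 to day 14, with medians 0.24, 0.022, -0.25. No member but DDX39B, at 0 to 4 reads, was kept out of the test by low counts.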

Other observations

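In the list of exon junction and nonsense-mediated decay proteins, 15 genes, 8 rose and 1 fell at day 7 (53.3% and 6.67%, against 22.2% and 21.2% of all genes). At day 14, 6 rose and 1 fell (40% and 6.67%, against 19% and 17.2%), and from day 7 to day 14 none rose and 4 fell (26.7% down, against 14.5% up and 13.6% down), with medians of 0.74, 0.45 and -0.085. SMG5, which recruits the degradation step, had 69.2, 80.8 and 87.1 CPM in the 2D samples, 208, 234 and 278 CPM at day 7 and 128, 171 and 145 CPM at day 14, a log2 fold change of 1.603 (SE 0.16, adjusted p = 2.06e-05) at day 7 and 0.91 (SE 0.16, adjusted p = 0.00108) at day 14. UPF1, the helicase of the pathway, rose at both times (0.74, adjusted p = 0.0105 and 1.13, adjusted p = 0.00114), with 38.0, 32.2 and 37.0 CPM in the 2D samples, 64.8, 60.6 and 53.996 CPM at day 7 and 108, 58.5 and 69.0 CPM at day 14. SMG1, the kinase that phosphorylates UPF1, was lower at both times (-1.02, adjusted p = 0.00109 and -0.94, adjusted p = 0.0024), with 48.7, 52.2 and 69.4 CPM in the 2D samples, 28.3, 29.6 and 25.9 CPM at day 7 and 25.3, 25.9 and 37.3 CPM at day 14.

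The minor spliceosome proteins (11 genes) had 1 up and 3 down at day 7 (9.09% and 27.3%), 1 up and 0 down at day 14 (9.09% and 0%), and 2 up and 1 down from day 7 to day 14 (18.2% and 9.09%). The shares of all genes given for the preceding list apply here too, and the 27.3% down at day 7 is near the 21.2% of all genes. PDCD7, a U11/U12 protein, rose between the time points (0.81, adjusted p = 0.0117). The regulators of alternative splicing outside the SR and hnRNP families (15 tested of 19) had 2 up and 3 down at day 7 (13.3% and 20%) and 1 up and 3 down at day 14 (6.67% and 20%), the latter near the 17.2% of all genes that fell.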
